A study of Mus musculus with 4 samples.

Results

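The Bardet-Biedl genes described here are 8 of the 18820 genes compared in Trim28-deleted and wild-type mouse embryonic stem cells: Bbs1, Bbs2, Bbs4, Bbs5, Bbs7, Bbs9, Bbs10 and Bbs12. They were chosen by their symbols and because they lay lower together in the knockout, so the knockout against wild-type difference selected them. Their differences, and the number of them past the threshold of the fit across all genes, are therefore given as a description, with no p-value and with nothing read from them. Each of the 8 is read by 1 probe set that the array annotation lists with that gene alone. The KAP_KO group holds 2 samples of embryonic stem cells labelled KAP1 fl/fl knockout. The KAP_WT group holds 2 samples of wild-type embryonic stem cells. KAP1 is the protein of the Trim28 gene, which silences chromatin where KRAB zinc finger proteins recruit it. All 4 samples carry the label 4-OH-tamoxifen, and the protocol describes 24 h of this drug or of ethanol and then 48 h without it. The cultures were kept on a feeder layer of irradiated fibroblasts of mouse embryos, and the labels give no step that removed these feeder cells. The Cre transgene and the number of clones are not given in the sources used here, and neither is whether the wild type is the same line before deletion, so line and deletion cannot be told apart.

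The primary cilium is a single antenna-like organelle that grows from the older centriole of a cell and gathers receptors of Hedgehog and other pathways. Proteins enter and leave it on intraflagellar transport (IFT) trains. The BBSome, a coat-like complex of Bbs1, Bbs2, Bbs4, Bbs5, Bbs7, Ttc8 (also called Bbs8), Bbs9 and Bbip1, rides on these trains and carries membrane proteins, mostly out of the cilium. The chaperonin-like proteins Bbs10, Bbs12 and Mkks, with the CCT chaperonin, help to assemble it. In humans, loss of these genes causes Bardet-Biedl syndrome, with retinal degeneration, obesity, extra digits and kidney disease.

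Many genes of the cilium share a promoter element, the X-box, to which RFX transcription factors bind. The RefSeq promoter table for GRCm38.p6, with 250 bases before and 50 after an annotated start, had a window for 8 of the 8 genes. Both strands of each window were searched for a loose form of the X-box, the arm GTNNCC and the arm GNAAC with 3 free letters between them. The element was found in 3 of the 8 windows, those of Bbs1, Bbs4 and Bbs7, and in 2.17% of all 32851 windows in the table. It was also found for 17 of 129 other genes with a window, from the cilium lists and the CCT chaperonin list. These 129 genes had 157 windows, and a gene counted if any of its windows held a match. A strict first arm, GTTGCC, was found in Bbs1, Bbs5 and Bbs7, in 44 of those 129 genes, and in 12.5% of all windows; in Bbs1 and Bbs7 it overlaps the X-box match. Only for 2 genes, Bbs4 and Bbs10, is the start of the window also the outermost annotated end of the gene, so other starts may exist for the rest. The sequences printed here are those of the members with the largest and the smallest difference and of each X-box match, so that windows with and without the element can be compared. All run 5′ to 3′ on the gene's strand, with the X-box match in capitals. Positions count from the start base as 0, with upstream bases negative. The first is the upstream part of the window of Bbs2 (chr8:94098510-94098759, minus strand), which holds no match.
Bbs2: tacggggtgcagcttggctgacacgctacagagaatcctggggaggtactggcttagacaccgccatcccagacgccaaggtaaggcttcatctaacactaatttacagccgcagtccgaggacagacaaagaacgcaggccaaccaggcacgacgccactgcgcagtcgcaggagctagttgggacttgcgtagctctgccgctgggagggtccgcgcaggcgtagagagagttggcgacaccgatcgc
The same stretch of Bbs7 (chr3:36613390-36613639, minus strand) holds a match on both strands that begins at -121.
Bbs7: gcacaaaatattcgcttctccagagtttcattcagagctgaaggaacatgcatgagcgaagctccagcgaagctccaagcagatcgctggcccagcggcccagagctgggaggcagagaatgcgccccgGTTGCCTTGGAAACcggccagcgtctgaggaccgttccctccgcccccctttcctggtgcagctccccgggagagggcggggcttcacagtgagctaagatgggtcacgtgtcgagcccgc
The matches of Bbs1 (chr19:4906605-4906634, minus strand) and Bbs4 (chr9:59353464-59353493, minus strand) lie just after the start, from 1 and from 23. The Bbs1 match is only on the strand opposite to the gene, so its capitals fit the element when read as the reverse complement.
Bbs1: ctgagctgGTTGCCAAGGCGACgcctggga
Bbs4: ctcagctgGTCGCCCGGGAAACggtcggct
For comparison, the matches of 2 other cilium genes, Mks1 (chr11:87853183-87853212, plus strand) and Ttc26 (chr6:38381483-38381512, plus strand), begin at -24 and -33. They were picked without a set rule from the 17 other genes with a match. Both were lower in the knockout at a limma adjusted p under 0.05, as were Tctn2 and Nphp4. The rest of the 17 did not pass this threshold or were not measured.
Mks1: gcgtctccGTTGCCAGGGGAACgaggcacc
Ttc26: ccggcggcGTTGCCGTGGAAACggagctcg

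Values are log2 expression after RMA, the authors' array normalization, so a difference of 1 is a doubling. Levels of different probe sets are not comparable, and only differences are set side by side. Trim28 read 8.97 and 8.92 in the KAP_KO samples, against 11.29 and 11.37 in the KAP_WT samples, and fell by 2.38 on the log2 scale (limma adjusted p = 3.39e-05). Pearson's r over all probe sets was 0.995 between the KAP_KO arrays and 0.994 between the KAP_WT arrays, and 0.974 to 0.976 across the groups. Of all genes, 12.7% were lower and 14.2% higher in the knockout at a limma adjusted p under 0.05, and 59.5% had a difference below 0. The median difference of all genes was -0.05. Pou5f1, a stem cell marker picked after its values were seen, read 10.86 and 10.78 in KAP_KO, against 11.28 and 11.33 in KAP_WT. Its difference was -0.49 (limma adjusted p = 0.00909), and -0.53 to -0.45 with single samples left out. Of 10 stem cell markers 7 were lower and 0 higher by limma. Larger differences than that of Pou5f1 included those of Fgf4 (-1.47), Klf4 (-1.34), Esrrb (-1.11) and Sox2 (-0.85).

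All 8 Bardet-Biedl genes had a lower mean in the knockout, with log2 differences from -1.09 in Bbs2 to -0.12 in Bbs7 and a median of -0.48. In 7 of them both KAP_KO samples lay below both KAP_WT samples, an arrangement found in 38.6% of all genes, while 26.6% had the reverse. By the fit across all genes 5 of the 8 were past the threshold, all as lower, beside 12.7% of all genes lower and 26.9% changed in either direction. The 5 are Bbs1, Bbs2, Bbs5, Bbs9 and Bbs12. Just 3 remain past it without KAP_WT replicate 2, namely Bbs2, Bbs5 and Bbs9.

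**Figure D1:**
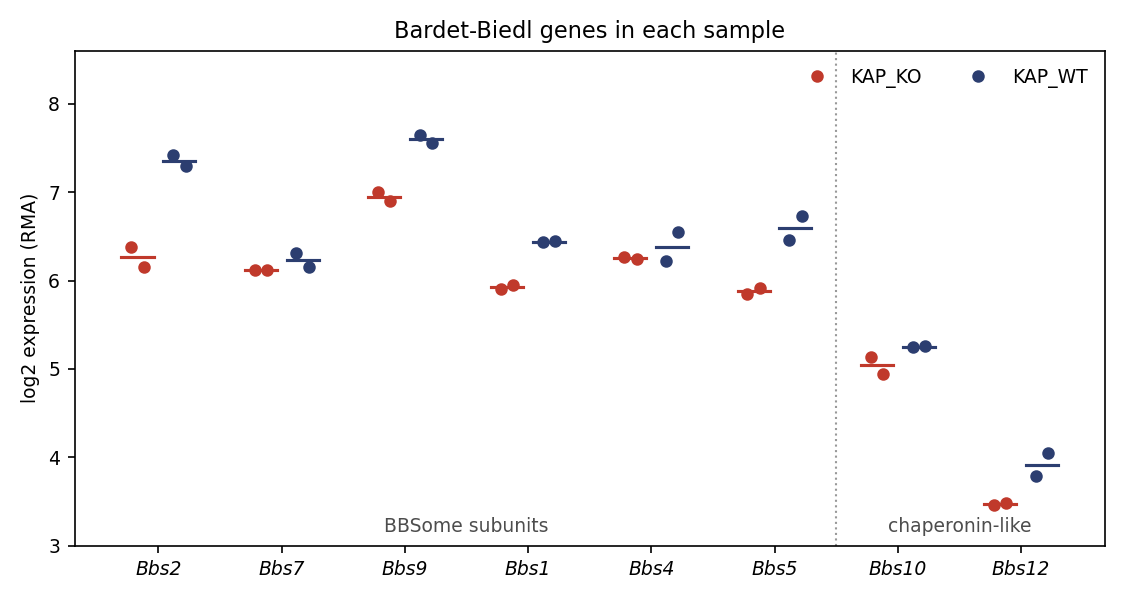
The log2 expression (RMA, vertical axis) of the 8 Bardet-Biedl genes is plotted for each sample, KAP_KO in red at the left of each pair and KAP_WT in blue, with points for samples and bars for the means of 2. The groups stand apart in Bbs2, Bbs9, Bbs1, Bbs5, Bbs10 and Bbs12, nearly touch in Bbs7 and overlap in Bbs4.

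Bbs2, Bbs7 and Bbs9 form the core of the BBSome on which the other subunits are built. Bbs2 read 6.38 and 6.16 in the KAP_KO samples, against 7.42 and 7.29 in the KAP_WT samples. Every KAP_KO value was below every KAP_WT value by at least 0.92, and the difference was -1.09 (SE 0.11), a knockout level of 47.0% of the wild type. Bbs2 had the largest difference of the 8, and only 1.14% of all genes had a lower one. Bbs9, which like Bbs2 has a beta-propeller domain, read 7.00 and 6.90 in KAP_KO, against 7.64 and 7.56 in KAP_WT. The groups did not overlap, and the difference of -0.65 (SE 0.10) put KAP_KO at 63.6% of KAP_WT. Bbs7, their partner in the core, read 6.12 and 6.11 in KAP_KO, against 6.31 and 6.16 in KAP_WT. Its groups were only 0.04 apart, less than the 0.15 between its KAP_WT samples, and the difference of -0.12 (SE 0.10) put KAP_KO at 92.1% of KAP_WT. It was -0.04 without KAP_WT replicate 1. The core held the largest difference of the 8, in Bbs2. That of Bbs7 was the smallest, but Bbs4, outside the core, was almost level at -0.13 (SE 0.12).

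Bbs1, the subunit that binds the GTPase Arl6 at the membrane, read 5.91 and 5.95 in KAP_KO, against 6.43 and 6.44 in KAP_WT. Replicates were within 0.04 of each other in both groups, and the difference of -0.51 (SE 0.09) put KAP_KO at 70.2% of KAP_WT. Bbs5, a subunit with pleckstrin-homology-like domains that bind membrane lipids, read 5.85 and 5.92 in KAP_KO, against 6.46 and 6.73 in KAP_WT. Its difference of -0.71 (SE 0.12) was the next largest after Bbs2, and the KAP_KO level was 61.2% of KAP_WT. Bbs4, a subunit made of tetratricopeptide repeats, read 6.27 and 6.25 in KAP_KO, against 6.22 and 6.54 in KAP_WT. Here the groups overlapped, since KAP_WT replicate 1 was below both knockout samples. The Bbs4 difference of -0.13 (SE 0.12) became 0.03 without KAP_WT replicate 2 and -0.29 without KAP_WT replicate 1.

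Of the chaperonin-like genes, Bbs12 read 3.46 and 3.48 in KAP_KO, against 3.79 and 4.05 in KAP_WT. The groups did not overlap, and the difference of -0.44 (SE 0.11) put KAP_KO at 73.6% of KAP_WT. Its mean over the 4 samples lies under the lower quartile of all genes (3.80), and its signal over background is unknown. Bbs10 read 5.13 and 4.95 in KAP_KO, against 5.25 and 5.26 in KAP_WT. The 2 groups were 0.11 apart, less than the 0.19 between the KAP_KO samples, and the difference of -0.21 (SE 0.10) put KAP_KO at 86.5% of KAP_WT. It was -0.12 without KAP_KO replicate 2. After quantile normalization once more the 3 smallest differences were larger, at -0.23 for Bbs4, -0.24 for Bbs7 and -0.36 for Bbs10. The 3 members with an X-box match in their windows had differences of -0.51 (Bbs1), -0.13 (Bbs4) and -0.12 (Bbs7). The 5 without one ranged from -1.09 (Bbs2) to -0.21 (Bbs10). The genes were chosen on these differences, and a link with the element was not tested.

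The BBSome subunit that was not among the chosen genes went the other way. Ttc8 read 6.47 and 6.60 in KAP_KO, against 5.74 and 5.77 in KAP_WT, with all knockout values above all wild-type values. It rose by 0.78 (SE 0.10, limma adjusted p = 0.00159), and its adjusted p reached at most 0.0268 when single samples were left out. Of the 7 BBSome subunits measured, 6 had a lower mean in the knockout and 1, Ttc8, a higher mean. Bbip1, Arl6 and Mkks had no probe set listed with that gene alone and were not analysed here.

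A list of 18 further genes that cause the syndrome or act on the BBSome had 13 measured members, of which 1 rose and 3 fell, with a median of -0.36 beside -0.05 for all genes. The riser was Ttc8. Ift172, a subunit of the IFT-B train, read 6.44 and 6.15 in KAP_KO, against 6.94 and 7.00 in KAP_WT, and fell by 0.68 (limma adjusted p = 0.00674). Mks1, a protein of the transition zone at the base of the cilium, read 6.62 and 6.56 in KAP_KO, against 7.13 and 7.28 in KAP_WT, and fell by 0.61 (limma adjusted p = 0.00489). Sdccag8, a centrosome protein, read 4.45 and 4.32 in KAP_KO, against 5.31 and 4.81 in KAP_WT, and fell by 0.67 (limma adjusted p = 0.0261). Mks1 stayed past the threshold with any sample left out. Ift172 missed it without KAP_WT replicate 1 (adjusted p = 0.0577) or replicate 2 (0.0701), and Sdccag8 without KAP_KO replicate 2 (0.0749) or KAP_WT replicate 1 (0.0929). Without KAP_WT replicate 1 only 1 of the 13 was called lower. The other 9 did not pass with all samples: Lztfl1, a brake on the entry of the BBSome into cilia, had a difference of -0.40, Cep19 -0.39, Ift74 -0.38, Scaper -0.36, Ift27 -0.32, Ccdc28b -0.31, Rab3ip -0.12, Wdpcp -0.03 and Trim32 0.07. Single samples set several of these values. Lztfl1 was -0.72 (limma adjusted p = 0.0389) without KAP_WT replicate 2 and -0.09 (0.72) without KAP_WT replicate 1. Scaper was -0.65 (limma adjusted p = 0.0289) without KAP_KO replicate 1 and -0.08 (0.808) without KAP_KO replicate 2. Without KAP_KO replicate 2, Cep19 was -0.58 (limma adjusted p = 0.0201) and Ift74 -0.50 (0.0414), against -0.19 (0.371) and -0.25 (0.257) without KAP_KO replicate 1. Lztfl1 also passed with the mean of its probe sets (adjusted p = 0.0321), and Ift74 (0.0219) and Cep19 (0.0449) after quantile normalization once more. Subtracting array medians, which lowers every difference by 0.17, made 8 of the 13 pass as lower and turned Trim32 to -0.10.

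**Figure D2:**
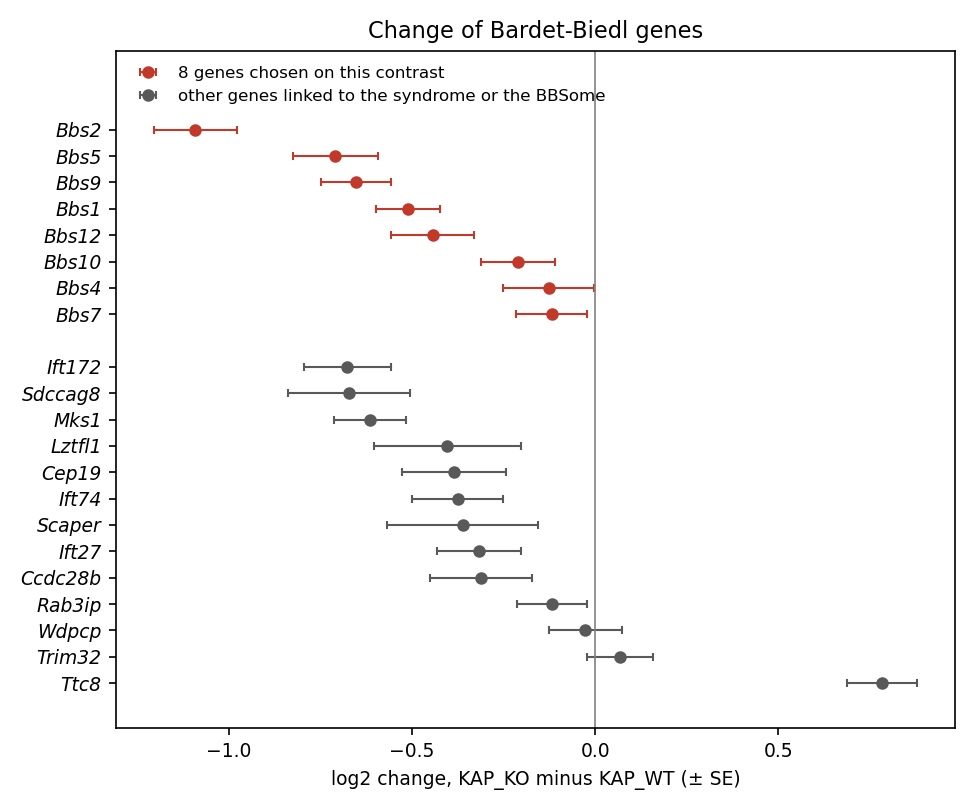
The log2 change, KAP_KO minus KAP_WT, is shown on the horizontal axis with its SE from the fit across all genes, for the 8 chosen Bardet-Biedl genes (red) and 13 other genes tied to the syndrome or the BBSome (grey). All red points lie below 0, and Ttc8 is the far point on the right at 0.78.

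Outside the 8, the cilium lists held 145 genes, of which 124 were measured: 28 fell (22.6%) and 14 rose (11.3%), with a median of -0.12. The background was 12.7% lower and 14.2% higher. The count of falls depended on the wild-type samples, with 10 without KAP_WT replicate 1 and 9 without KAP_WT replicate 2, as did the count of rises, with 5 in both cases. Rises also numbered 6 without KAP_KO replicate 1. Over all 18820 genes the same omissions left 998 and 899 called lower, against 2395 with all samples. With array medians subtracted, 56 of the 124 were lower and 7 higher, and after quantile normalization once more 35 and 9.

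The IFT-B train, which moves cargo towards the tip, had 18 measured genes, of which 7 fell and 2 rose, with a median of -0.35. Ttc26, also called Ift56, read 6.29 and 6.13 in KAP_KO, against 7.04 and 7.27 in KAP_WT, and fell by 0.94 (limma adjusted p = 0.00169). Cluap1, also called Ift38, read 5.69 and 5.77 in KAP_KO, against 6.87 and 6.44 in KAP_WT, and fell by 0.93 (limma adjusted p = 0.0047). Ttc26 and Cluap1 passed with any sample left out. Ttc30a1, a near-identical relative of other Ttc30 genes whose probes may be shared, fell by 0.68 (adjusted p = 0.0121, and 0.093 without KAP_WT replicate 2). The risers were Hspb11, also called Ift25, at 0.69 (adjusted p = 0.0138, and 0.0949 without KAP_WT replicate 1) and Ift88, a central IFT-B subunit, at 0.55. Ift88 read 6.51 and 6.35 in KAP_KO, against 5.86 and 5.92 in KAP_WT, and its limma adjusted p of 0.00778 became 0.0659 without KAP_WT replicate 1 and 0.0552 without KAP_WT replicate 2. It was picked after its values were seen. Called members of this single train were thus lower in some cases and higher in others. The groups did not overlap in these 5 genes, but they were named for their calls or after their values were seen. Of all genes, 38.6% had non-overlapping groups with the knockout lower and 26.6% with it higher. The count of falls on the train was 3 without KAP_WT replicate 1 and 2 without KAP_WT replicate 2.

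Of 7 IFT-A genes, whose train returns cargo to the base, 1 fell and 1 rose, with a median of -0.13. Ift140 had a difference of -0.51 (limma adjusted p = 0.0306) and Ttc21b one of 0.49 (limma adjusted p = 0.0303). Leaving out single samples took the adjusted p up to 0.169 for Ift140, without KAP_KO replicate 2 or either KAP_WT sample, and up to 0.154 for Ttc21b, without KAP_KO replicate 1 or either KAP_WT sample. Among 8 motor genes 0 rose (1 was higher at an unadjusted p under 0.05) and 1 fell, Kifap3 of the kinesin-II motor at -0.44 (limma adjusted p = 0.047). Its adjusted p was 0.0532 when every single-gene probe set was tested, and up to 0.2 without KAP_KO replicate 1 or either KAP_WT sample.

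The transition zone, the gate at the base of the cilium, had 22 measured genes, of which 7 fell and 1 rose, with a median of -0.14. Nphp4 fell by 0.68 (limma adjusted p = 0.00827), Mks1 as above, Cc2d2a by 0.60 (limma adjusted p = 0.0056) and Tctn3 by 0.43 (limma adjusted p = 0.034). Without KAP_WT replicate 2, Nphp4 had an adjusted p of 0.0657 and Cc2d2a one of 0.0504, and only 1 of the 22 was called lower, while 3 were without KAP_WT replicate 1 and 4 without either KAP_KO sample. For Tctn3 the adjusted p reached 0.159 when KAP_KO replicate 2 or either KAP_WT sample was left out, and with the mean of its probe sets the difference was -0.28 (0.0764). In the list for basal bodies and cilium assembly, 3 of 25 fell and 2 rose, with a median of -0.12. Nek2, a mitotic kinase of the centrosome that also promotes loss of the cilium, read 8.83 and 8.87 in KAP_KO, against 9.49 and 9.58 in KAP_WT, and fell by 0.69 (limma adjusted p = 0.00225, at most 0.0321 with single samples left out). Cby1, a basal body protein, had a difference of -0.39 (adjusted p = 0.0276), the centriolar satellite scaffold gene Pcm1 one of 0.38 (0.0304) and the vesicle GTPase gene Rab11a one of 0.35 (0.0333). The call of Rab11a was lost when any 1 of the 4 samples was left out. Those of Cby1 and Pcm1 were lost without KAP_KO replicate 2 or either KAP_WT sample. With array medians subtracted, Pcm1 was at 0.21 (limma adjusted p = 0.129) and Rab11a at 0.18 (0.164).

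**Figure D3:**
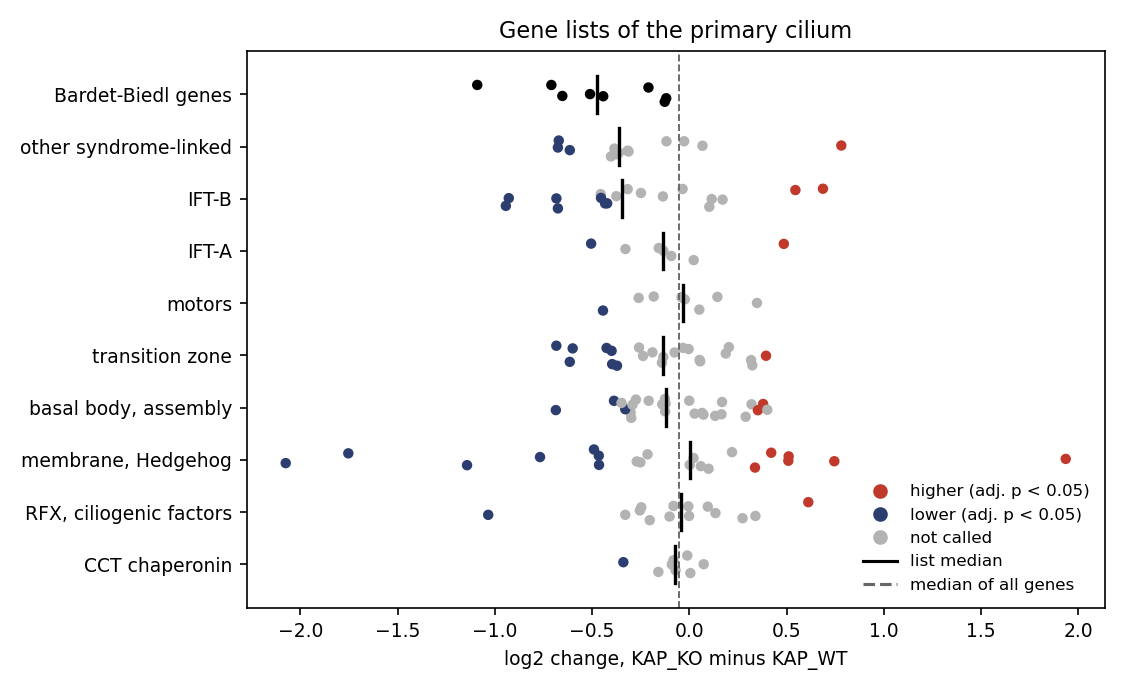
Each point is the log2 change, KAP_KO minus KAP_WT, of 1 gene in the named list, coloured by its call at a limma adjusted p under 0.05, with black bars at the list medians and a dashed line at the median of all genes (-0.05). The 8 Bardet-Biedl genes are in black without calls, since they were chosen on this contrast; the IFT-B list is centred at -0.35 and the Hedgehog list spreads most, from -2.08 to 1.94.

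Among the genes of signalling at the cilium, Gli2 and Gli1 fell and Gli3 rose by more than any other gene of the cilium lists in their direction. Of 21 measured genes for ciliary membrane proteins, cargo and Hedgehog signalling, 7 fell and 6 rose, with a median of 0.00. Without either KAP_WT sample 3 were lower, and 3 (without replicate 1) or 2 (without replicate 2) higher; without KAP_KO replicate 1, 2 were higher. The Hedgehog pathway ends in 3 Gli transcription factors, which pass through the tip of the cilium. Gli1, an activator whose gene is itself a Hedgehog target, read 5.76 and 5.60 in KAP_KO, against 7.48 and 7.39 in KAP_WT, and fell by 1.75 (limma adjusted p = 1.03e-04). Gli2, the main activator, read 6.36 and 5.89 in KAP_KO, against 8.21 and 8.19 in KAP_WT, and fell by 2.08 (limma adjusted p = 2.43e-04). Gli3, the main source of the repressor form, read 8.23 and 8.37 in KAP_KO, against 6.36 and 6.37 in KAP_WT, and rose by 1.94 (limma adjusted p = 6.79e-05). All 3 were past the threshold with any sample left out, and the groups were far apart in each.

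Evc, a ciliary base protein that relays the signal from Smo, read 6.01 and 6.03 in KAP_KO, against 7.20 and 7.13 in KAP_WT, and fell by 1.14 (limma adjusted p = 3.01e-04). The next genes were picked after their values were seen. Smo, the receptor-like transducer that enters the cilium when the pathway is on, read 8.76 and 8.73 in KAP_KO, against 7.95 and 8.05 in KAP_WT, and rose by 0.75 (limma adjusted p = 0.00161). Ptch1, the Hedgehog receptor and a target of the pathway, read 8.26 and 7.70 in KAP_KO, against 8.85 and 8.64 in KAP_WT, and fell by 0.77 (limma adjusted p = 0.0232). Evc2, the partner of Evc, fell by 0.46 (limma adjusted p = 0.00933), and Kif7, a kinesin that organises the ciliary tip, by 0.49 (limma adjusted p = 0.00952). Without KAP_WT replicate 1 or 2 the calls of Ptch1 (adjusted p up to 0.169), Evc2 (up to 0.0631) and Kif7 (up to 0.0657) were lost. Sufu, which holds Gli proteins in the cytoplasm, had a difference of 0.06 (adjusted p = 0.68), and -0.11 with array medians subtracted.

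**Figure D4:**
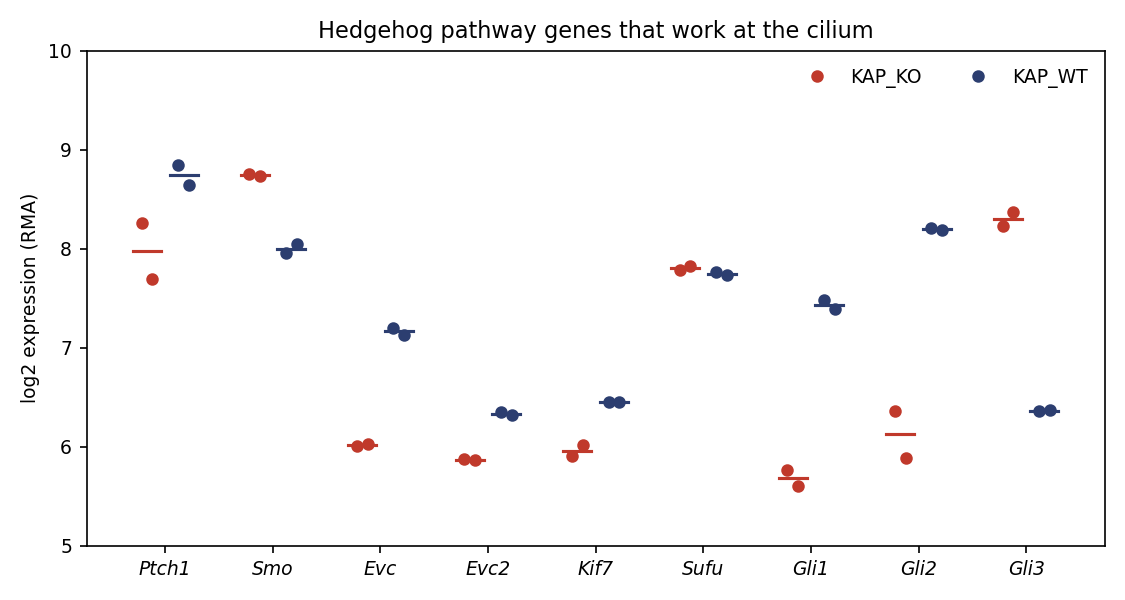
The log2 expression (RMA, vertical axis) of 9 Hedgehog pathway genes is plotted by sample, KAP_KO in red at the left of each pair and KAP_WT in blue, with bars for the means of 2. Gli1, Gli2, Evc, Evc2, Kif7 and Ptch1 are lower in KAP_KO, Gli3 and Smo higher, and Sufu nearly level.

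Among 14 measured RFX factors and other regulators of cilium genes, 1 fell and 1 rose, with a median of -0.04. Rfx2, an activator of cilium genes in several vertebrates, read 7.41 and 6.74 in KAP_KO, against 8.10 and 8.13 in KAP_WT, and fell by 1.03 (limma adjusted p = 0.0104). Its call was lost without KAP_WT replicate 1 (adjusted p = 0.0909) or replicate 2 (0.0994). Myb, a factor of multiciliated and blood cells, had a difference of 0.61 (limma adjusted p = 0.018, and up to 0.134 without KAP_KO replicate 1 or either KAP_WT sample). Rfx3, another regulator of cilium genes, had a difference of 0.13 (adjusted p = 0.339), and -0.035 with array medians subtracted. Of the 8 CCT chaperonin genes, which work with Bbs10 and Bbs12, 0 rose by limma (0 with an unadjusted p under 0.05) and 1 fell. That gene, Tcp1, had a difference of -0.34 (limma adjusted p = 0.0368) that missed the threshold without any 1 of the 4 samples (adjusted p up to 0.16).

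The 8 genes lie on 6 mouse chromosomes, with Bbs4 and Bbs9 both on chromosome 9 and Bbs7 and Bbs12 both on chromosome 3. The 3 nearest measured genes on each side gave 47 different neighbours, of which 7 fell and 5 rose, with a median of -0.03. Of all genes 12.7% were lower and 14.2% higher, with a median of -0.05, and the neighbours were near these shares. Beside Bbs2 the metallothionein genes Mt3 and Mt4 fell by 0.98 and 0.69 (limma adjusted p = 0.00113 and 0.0131). Beside Bbs1 the muscle alpha-actinin gene Actn3 fell by 0.98 (adjusted p = 0.00246) and the lysosomal protease gene Ctsf by 0.44 (0.0196), while Peli3, a ubiquitin ligase gene, rose by 0.38 (0.0279). Beside Bbs5 the endocytic receptor gene Lrp2 rose by 1.99 (limma adjusted p = 4.12e-04) and Fastkd1, of mitochondrial RNA processing, fell by 0.74 (0.005). Anxa5, near Bbs7, rose by 2.15 (limma adjusted p = 2.10e-04). Near Bbs10, Phlda1 rose by 0.97 (adjusted p = 0.00407) and Zdhhc17 by 0.45 (0.0138). Tmem202 near Bbs4 fell by 0.50 (adjusted p = 0.0195) and Spata5 near Bbs12 by 0.37 (0.0366). The 6 neighbours of Bbs9 had 0 calls by limma (1 higher at an unadjusted p under 0.05). Without KAP_WT replicate 2 the calls of Mt4, Ctsf, Peli3, Fastkd1, Phlda1, Zdhhc17 and Spata5 were lost (adjusted p 0.0512 to 0.134). Without KAP_WT replicate 1 those of Mt4, Ctsf, Peli3, Tmem202, Zdhhc17 and Spata5 were lost (0.0751 to 0.154). Without KAP_KO replicate 1 those of Ctsf, Peli3, Tmem202 and Spata5 were lost (0.0715 to 0.162), and without KAP_KO replicate 2 that of Zdhhc17 (0.0502). Peli3 and Zdhhc17 also missed the threshold after quantile normalization once more (0.119 and 0.0713).

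**Figure D5:**
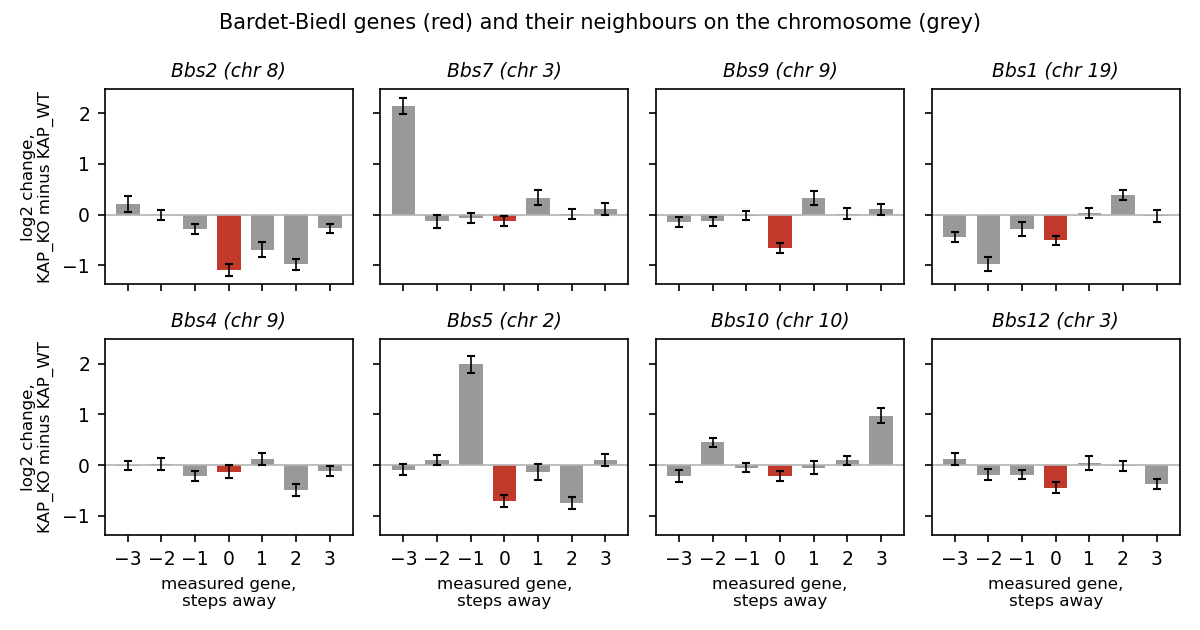
The log2 change, KAP_KO minus KAP_WT (vertical axis, with SE from the fit across all genes), is drawn for each Bardet-Biedl gene (red) and for the 3 nearest measured genes on each side in order along the chromosome (grey). Neighbours called lower lie beside Bbs1, Bbs2, Bbs4, Bbs5 and Bbs12, and neighbours called higher beside Bbs1, Bbs5, Bbs7 and Bbs10. Lrp2, beside Bbs5, stands at 1.99, and no neighbour of Bbs9 was called.

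Markers of other cells differed between the same samples. Of 20 measured fibroblast markers, which the feeder cells also express, 15 rose and 0 fell (limma, 0 lower at an unadjusted p under 0.05), with a median of 1.01. Their summed linear level was 2916 and 3215 in KAP_KO, against 715 and 532 in KAP_WT. Acta2 and Tagln, singled out after their values were seen, made up 1764 and 2136 in KAP_KO, against 139 and 47.5 in KAP_WT. The other 18 markers summed to 1152 and 1079 in KAP_KO, against 576 and 485 in KAP_WT. The smooth-muscle actin gene Acta2 read 10.27 and 10.46 in KAP_KO, against 6.78 and 4.64 in KAP_WT, and the collagen gene Col1a1 7.75 and 7.57 in KAP_KO, against 6.13 and 5.63 in KAP_WT. The fibroblast activation gene Fap was near the bottom of the range in all samples, at 2.71 and 2.66 in KAP_KO, against 2.79 and 2.74 in KAP_WT. Trophoblast markers summed to 4834 and 5672 in KAP_KO, against 1190 and 1250 in KAP_WT, with 5 of 11 rising and 1 falling (0 without either KAP_WT sample) and a median of 0.23. The keratin genes Krt8 and Krt18, also singled out afterwards, made up 4028 and 4871 in KAP_KO, against 368 and 433 in KAP_WT. The other 9 trophoblast markers summed to 806 and 800 in KAP_KO, against 822 and 817 in KAP_WT, so the higher sum lay in these 2 genes. The level sum of the 9 held changes in both directions. Krt7 rose by 2.00 (limma adjusted p = 1.71e-04), Cdx2 by 1.03 (8.85e-04) and Hand1 by 0.98 (8.85e-04). Tfap2c, which read higher than these 3 in KAP_WT, fell by 0.81 (limma adjusted p = 0.00453), and the other 5 were not called. Primitive endoderm markers summed to 1405 and 1776 in KAP_KO, against 862 and 856 in KAP_WT, with 7 of 12 rising and 0 falling (0 at an unadjusted p under 0.05 by limma). Stem cell markers summed to 13340 and 11380 in KAP_KO, against 17400 and 17120 in KAP_WT, with 7 of 10 falling, and 2 without either KAP_WT sample. Their part in the lower levels of the Bardet-Biedl genes was not tested, and fewer cells of a type and less RNA per cell cannot be told apart in bulk samples.

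The genes whose profile was most like the mean profile of the 8 were sought by the root mean square difference over the 4 samples, each profile centred on its mean. The closest were the mitochondrial ribosome gene Mrpl47 (0.01), the calcium channel gene Ryr2 (0.01), the polyadenylation factor gene Cstf2t (0.01), the ubiquitin ligase adaptor gene Dcaf8 (0.01) and Hps1 (0.01), which acts in the biogenesis of lysosome-related organelles. Mrpl47 read 7.46 and 7.42 in KAP_KO, against 7.89 and 7.95 in KAP_WT. With 4 samples in 2 groups such likeness is mainly a similar difference between the groups, and the genes were picked by it, so it is a description.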

How the data were processed

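Total RNA (250 ng per sample) was measured on 1 array per sample, of the type Affymetrix Mouse Gene ST 1.1, per the labels' protocols. The authors deposited log2 values; the submitters' processing notes name affy and RMA, and the genome build and versions are not given in the sources used here. Values ran from 1.45 to 12.9 over 35556 probe sets. The number of arrays limits the precision, and signal over background is unknown. Of these, 21218 probe sets had 1 gene symbol in the platform annotation, and the one with the highest mean was kept for each of 18820 genes.

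KAP_KO was compared with KAP_WT with the functions lmFit and eBayes of limma 3.58.1 (R 4.3.3) without covariates, as two-sided tests with Benjamini-Hochberg adjustment over all genes and a threshold of 0.05. An exact permutation test of 2 against 2 cannot go below p = 0.333 and was not used. The function eBayes draws the variance of each gene towards a value common to all genes. That common value weighs 4.70 degrees of freedom, against 2 from the gene's own samples. SEs and p-values thus rest on both, and not on the spread between these samples alone. The labels name biological replicates but not separate cultures, so the spread between separate cultures may not be covered.

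The genes, lists, tests and alternatives were chosen with earlier results of these data known. Named are the 8 genes, the other genes of the syndrome, called neighbours, the 5 closest profiles and Trim28. Up to 4 called genes with the largest change per list were also named, and some cell type markers among them are not described above. Smo, Ptch1, Evc2, Kif7, Sufu, Ift88, Rfx3, Pou5f1, Nanog, Fap, Hand1 and Tfap2c were added after their values were seen. List symbols were matched directly or through 1 RefSeq synonym. Chromosome and gene order came from RefSeq GRCm38.p6. Alternatives were the replicate block, trend or robust priors, filters on dim genes, quantile or median scaling, other probe set rules, an adjusted p under 0.1 and each sample left out.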

Additional observations from a re-analysis of the deposited data

How the results depend on the processing

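With 2 arrays per group, leaving out a sample leaves a lone array that is assumed to vary like the other group. Over these 4 omissions the genes called higher in the knockout numbered 1531 to 2405 and those called lower 899 to 1945, against 2676 and 2395 with all samples. The Bardet-Biedl genes called lower numbered 3 to 5, against 5. Other cilium genes called higher numbered 5 to 10, against 14, and those called lower 9 to 27, against 28; the median difference of the 8 genes stayed between -0.55 and -0.41. With array medians subtracted, 6392 genes were lower and rises made up 24.4% of calls (52.8% as deposited), 7 cilium genes were higher and 56 lower, and the median of the 8 was -0.65. Subtraction moves every difference by the same amount (-0.17) and also changes the spread within the groups. The part of each in the changed counts was not tested. Quantile normalization once more gave 9 cilium genes higher; the cause was not tested. Signs turned for Trim32 (-0.10), Sufu (-0.11) and Rfx3 (-0.035) with array medians subtracted and for Wdpcp (0.055) without KAP_WT replicate 2, none of them called, and for Bbs4 (0.034) without KAP_WT replicate 2. The naming rule and the genes added after their values were seen, other than Fap, Hand1 and Tfap2c, gave 66 genes with a call. Among the 66 are cell type markers that are not described above. Many of these calls were lost when 1 sample was left out, and 0 of the 66 changed sign under any alternative. The replicate numbers are shared by the groups. Across the 18820 genes, the difference between replicates 1 and 2 in KAP_KO correlated at 0.15 with that in KAP_WT. With 2 replicates per group this cannot settle whether same-numbered samples are paired. With the replicate number as a block 2690 genes were higher and 2403 lower, and 5 of the 8 and 33 other cilium genes lower. The block ended the calls of Tcp1 (adjusted p = 0.0508) and Nanog (0.0511) and added those of Ift74 (0.0317), Cep19 (0.0428) and Scaper (0.0471), so that 6 of the 13 other syndrome genes were lower, against 3. The other alternatives kept the counts over all genes, the 8 genes and all cilium genes within 1.5 times of those with all samples. No alternative background correction was run, since it needs scanner intensities.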
